A study of Schizosaccharomyces pombe with 8 samples.

Results

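The subtelomeric genes of chromosome I of fission yeast, Schizosaccharomyces pombe, were described in 2 comparisons of RNA from mutant and control cells. Members were the listed genes whose systematic IDs name 1 of 8 sequenced clones at the ends of chromosome I (SPAC212, SPAC977, SPAC1F8, SPAC11D3 and SPAC5H10 at the left end, SPAC869, SPAC186 and SPAC750 at the right end), apart from 11 genes that the rule names and leaves out. This gave 82 of 5129 genes, of which 55 lie at the left end, 26 at the right end and 1, SPAC11D3.20, was not placed. The rule reads gene IDs and no measured value of these genes, but it was set with earlier results of these data known. Symbols, products and gene order came from the reference annotation of assembly ASM294v3, in which 81 of the 82 members were found. No coordinates or sequences are given, because the deposited tables rest on ASM294v2.

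The study sequenced poly(A)-selected RNA in 8 libraries, 2 in each of 4 groups, from cells grown in rich YS medium with added glucose. WT cells were set against seb1-1, a viable mutant allele of the gene for Seb1, which binds nascent RNA and the tail of RNA polymerase II and acts in termination (the seb1-1 comparison). The groups labelled epe1KO and epe1KO_tfs1DN (the tfs1DN comparison) both carry a deletion of epe1, whose product counteracts heterochromatin. The latter also carries tfs1DN, which encodes TFIIS (an elongation factor that frees backtracked polymerase) in a dominant-negative form, driven by the thiamine-repressible nmt1 promoter from an insert at leu1. The paper reports that strong expression of tfs1DN kills epe1 deletion cells. Its work in that background therefore used thiamine, and with this leaky repression a minority of tfs1 transcripts came from tfs1DN. The epe1KO_tfs1DN group was a single strain isolate, so changes of that isolate and of the insertion cannot be told apart from those of tfs1DN. Nothing in the labels tells whether replicate libraries came from separate cultures, so p-values measure the spread between these libraries, which may be technical. The epe1 mean was 706 normalized counts in the epe1KO pair of groups and 712 in the WT pair, which goes against a full deletion, so directions are between libraries so labelled.

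The last stretch of each chromosome arm, next to the telomere, is held in heterochromatin, in which histone H3 carries methylated lysine 9 bound by Swi6 and transcription is low. Fission yeast subtelomeres hold repeated blocks shared between chromosome ends, which include helicase genes of the RecQ type. Further in lie genes for uptake, cell surface proteins and enzymes of nitrogen and sugar metabolism, many of which are used only under particular nutrient supply or stress. These are background statements and not results of these libraries.

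Many members of the outermost clones exist in more than 1 place, which limits what their reads can show. A near-identical copy was defined, after the data had been seen, as another place in the reference genome that matches a gene's coding sequence at 95% identity or more over at least 90% of its length. By this measure 21 of 82 members had a copy, on chromosome II for 19 and on chromosome I for 2. They were 4 of 8 members of SPAC212, 10 of 13 of SPAC977, 6 of 8 of SPAC750 and 1 of 7 of SPAC186. No member of SPAC1F8, SPAC11D3, SPAC5H10 or SPAC869 had one. With matches of 90% identity over at least 50% of the coding sequence the number was 29, including all 8 members of SPAC212, all 8 of SPAC750 and 12 of 13 of SPAC977. How the authors' counting treated reads that fit several places was not given, so the values of these genes are uncertain. Its strand setting was not given either, and 59 members overlap an annotated gene on the opposite strand, so their reads may not all be their own.

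The members were weakly expressed, and the weakest lay nearest the telomeres. The deposited mean counts are the authors' means over the 4 libraries of a pair of groups, so no value per library or per group can be shown, and the sequencing depth per library is unknown. The median member had a mean of 51.5 normalized counts in the WT pair (median percentile 6.22 among all genes) and 57.4 in the epe1KO pair (median percentile 5.67). Over all 5129 genes the median means were 872 and 948. In the WT pair 30 members (36.6%) had a mean below 10, against 3.45% of all genes, and 10 were listed at 0. In the epe1KO pair the numbers were 29 members (35.4%), against 2.94% of all genes, and 9 at 0. The 21 members with a near-identical copy had median means of 0.707 in the WT pair and 0.488 in the epe1KO pair. The 61 without one had 136 and 221, and 18.0% and 21.3% of these had a mean below 10. Of 12 members listed at 0 in at least 1 pair, 9 had a near-identical copy, among them tlh1, a RecQ-type helicase gene that was the outermost listed gene of the left end. For these genes a mean of 0 cannot be told apart from reads that were given to a copy or left out.

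Both ends showed the same order of levels. Positions are given as gene order, counted in annotated protein-coding genes from the end. At the left end the first member with a mean of 100 or more in either pair was nhe1 (SPAC977.10), the sodium and proton antiporter that gives salt tolerance, at position 19. It had a mean of 931 in the WT pair and 1420 in the epe1KO pair. The 18 members between it and the left telomere had median means of 1.07 and 0.622, and the highest of them reached 66.9 and 72.7. At the right end the first such member was yhb1 (SPAC869.02c), the nitric oxide dioxygenase that detoxifies nitric oxide, also at position 19, with means of 2385 and 1209. The left-out gene pfl9 lies at position 17 with a mean of 237 in the WT pair and 46.0 in the epe1KO pair, so in the WT pair the position of yhb1 as the first depends on the rule. The 16 members closer to the right telomere had median means of 2.56 and 0.178. As a description over genes, which share their libraries, the Spearman correlation of position with the mean per kb of transcript was 0.63 in the WT pair and 0.68 in the epe1KO pair at the left end (55 members), and 0.77 and 0.80 at the right end (26 members). Near-identical copies lie mostly in the outermost clones, and how read assignment bears on these correlations was not tested.

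**Figure D1:**
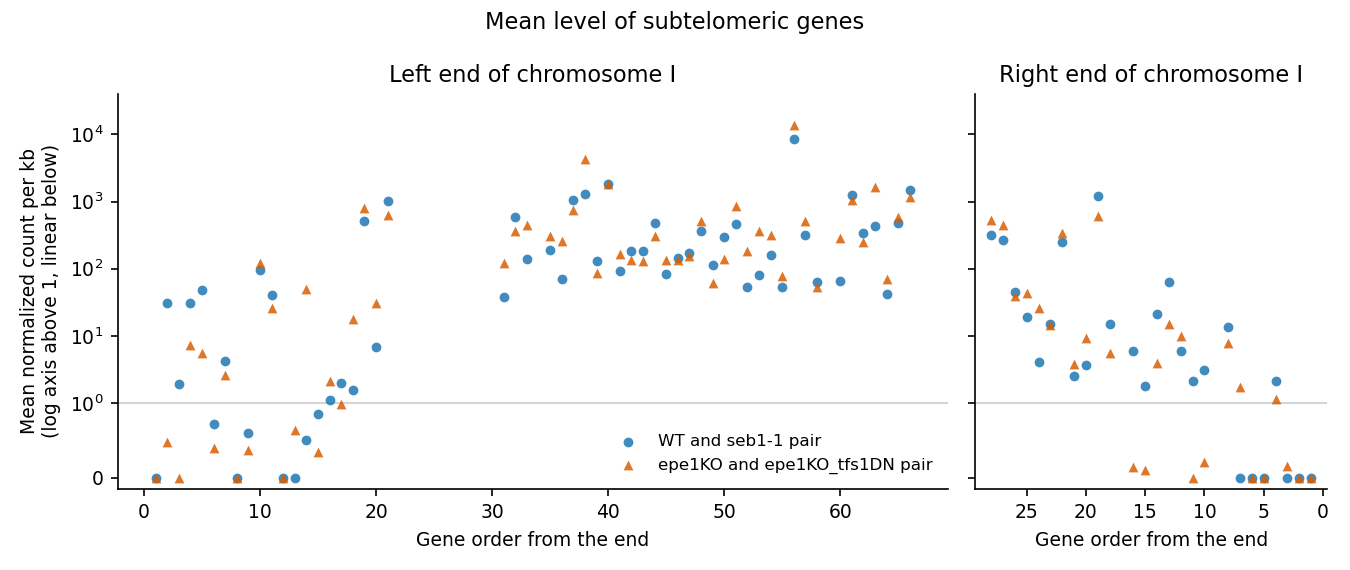
Mean normalized count per kb of transcript (vertical axis, log above 1 and linear below) of each member against its gene order from the chromosome end (horizontal axis, reversed for the right end), with circles for the WT and seb1-1 pair and triangles for the epe1KO and epe1KO_tfs1DN pair. Each point is the authors' mean over 4 libraries, and no member before position 19 at either end had a mean count of 100 or more.

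SPAC5H10.03, annotated in the phosphoglycerate mutase and 6-phosphofructo-2-kinase family, stood far above the other members in level per kb. It had 8665 normalized counts per kb in the WT pair and 13765 in the epe1KO pair. SPAC11D3.04c, a SnoaL-like polyketide cyclase domain protein, was at 1824 and 1832 counts per kb. SPAC11D3.02c, an acetyltransferase, was at 1307 and 4349 counts per kb. The galactosyltransferase gene gmh2 (SPAC5H10.13c), whose product adds galactose to glycoproteins, was at 1470 and 1166, and pan6 (SPAC5H10.08c), a ligase of pantothenate synthesis, at 1259 and 1057. In the epe1KO pair SPAC5H10.10, annotated as an NADPH dehydrogenase, took the fourth place with 1635 counts per kb. All of them belong to SPAC11D3 and SPAC5H10, the 2 clones of the left end farthest from the telomere. In the WT pair members of other clones lay just below, such as yhb1 (SPAC869.02c) at 1192 and SPAC977.12 at 1020 counts per kb.

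The seb1-1 comparison asked whether these genes change when Seb1 is impaired, and none of those tested passed the threshold. A gene rose or fell where the authors' DESeq2 adjusted p, taken over all genes of the table, was below 0.01. The paper and the plan of this work also required a change of more than 2-fold, and counts with that limit are given separately. Of the 82 members, 72 had a p-value and 54 passed the authors' filter on low counts. Among these 54, 0 rose and 0 fell, where 0.181% of all tested genes rose and 0.302% fell, so a list of this size would hold few calls at the background share. At an unadjusted p below 0.05 there were 8 members (2 higher and 6 lower in seb1-1), or 11.1% of those with a p-value, against 9.29% of all genes. The median log2 fold change of the tested members was -0.02, and that of all tested genes was -0.03.

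The 2 lowest values lay close together in SPAC11D3. SPAC11D3.03c, an uncharacterized protein gene with a mean of 140 normalized counts in the WT pair, had the lowest log2 fold change of all tested members at -1.37 (SE 0.34, adjusted p 0.0118). SPAC11D3.19, also uncharacterized and 3 genes closer to the telomere, had a mean of 99.2 and was at -1.23 (SE 0.36, adjusted p 0.0501). The genes between them were at 0.56 for SPAC11D3.01c and -0.07 for SPAC11D3.02c, so the low values were not continuous. At the right end SPAC869.09, a Con-6 family gene, was at -1.01, and hry1 (SPAC869.06c), with an HHE domain that binds cations, at -0.91. The galactosyltransferase gene gmh1 (SPAC5H10.11) was at -0.79. None of these 5 passed the threshold.

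The highest values lay toward the telomeres, on genes with few reads. SPAC977.18, an uncharacterized gene with a mean of 56.9, was at 0.99 (SE 0.36, adjusted p 0.191). SPAC750.01, an aldo/keto reductase family gene with a mean of 14.7, was at 0.88, and SPAC212.08c, which encodes a GPI-anchored protein and had a mean of 25.4, at 0.73. The membrane protein gene ftm2 (SPAC977.02) was at 0.72, and the amidase gene SPAC869.01 at 0.64. All 5 missed the threshold. The coding sequences of ftm2, SPAC750.01, SPAC212.08c and SPAC977.18 match another place on chromosome I over 100%, 99.1%, 64.3% and 59.0% of their length. The identity of these matches is 100%, 93.9%, 97.6% and 95.8%, so reads of these genes may not all be their own. The Spearman correlation of the log2 fold change with position was -0.31 over 42 tested members of the left end and -0.71 over 12 of the right end, where position and level moved together. The comparison had little reach for changes of moderate size: the smallest absolute log2 fold change past the threshold in the whole table was 1.24, and the 95% interval lay within 1 log2 unit of 0 for 31 of the 54 members, against 3729 of all 4972 tested genes.

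**Figure D2:**
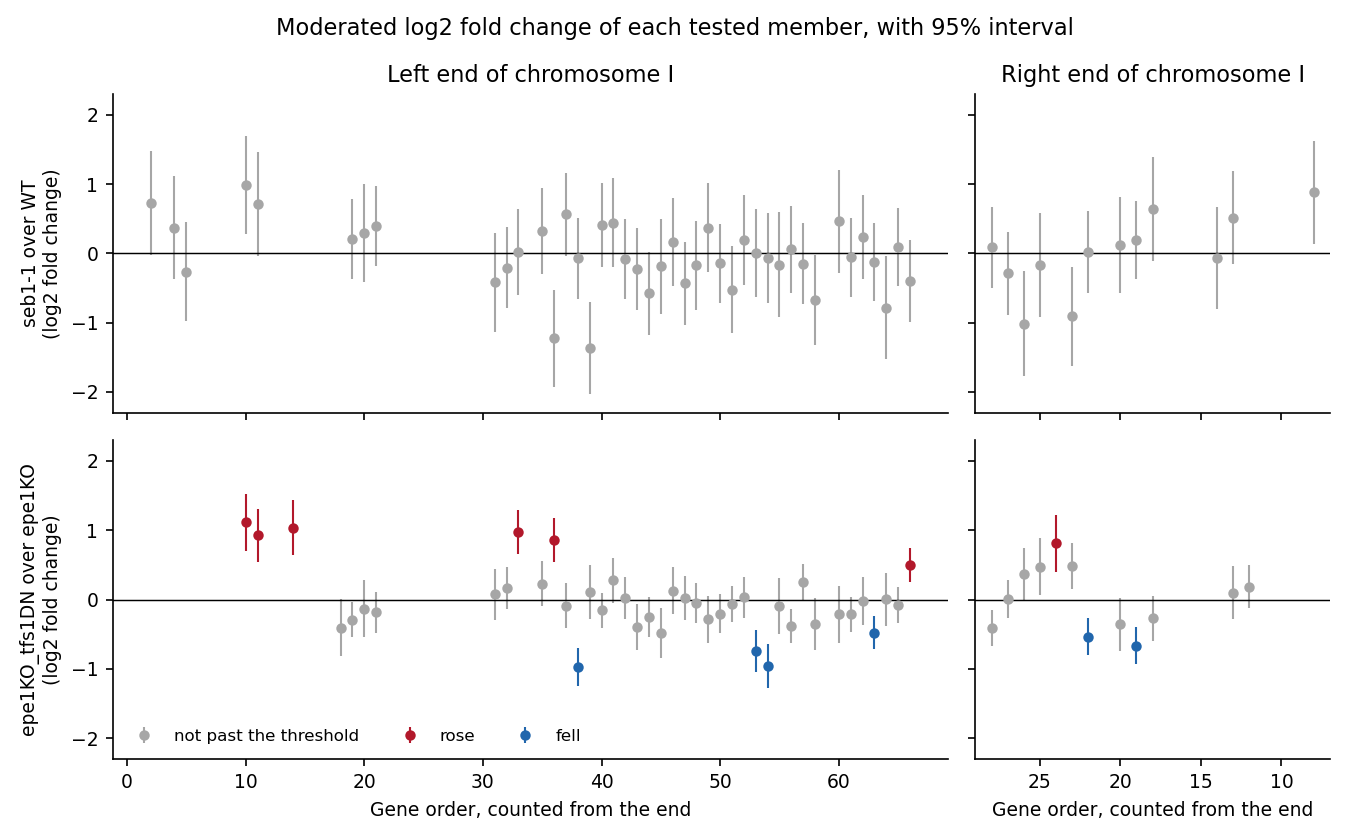
Moderated log2 fold change with its 95% interval (vertical axis) of each tested member against gene order from the chromosome end (horizontal axis, reversed for the right end), for seb1-1 over WT in the upper panels and epe1KO_tfs1DN over epe1KO in the lower panels. Red points rose and blue points fell at an adjusted p below 0.01, which gives 0 coloured points above and 13 below.

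The tfs1DN comparison asked which genes differ when the dominant-negative TFIIS is present in cells labelled epe1KO, and 13 of 53 tested members passed the threshold, in both directions. Among them 7 rose (13.2%) and 6 fell (11.3%), where 2.37% of all tested genes rose and 2.21% fell. On the authors' moderated scale 2 members, SPAC977.18 and SPAC977.05c, rose by more than 2-fold, and 0 fell by more than 2-fold. Of all tested genes 0.522% were past that size in either direction. Moderation holds the fold changes of genes with few reads near 0, so these counts may understate the size of changes. The median log2 fold change of the tested members was -0.07 (range -0.98 to 1.11). At an unadjusted p below 0.05 there were 21 members (10 up and 11 down), 28.8% of those with a p-value, against 20.6% of all genes. With Wald scores divided by their spread over all genes (1.48), the count was 3, SPAC11D3.02c, pfl8 and dgc1. The share of all tested genes that pass under this scaling is not given here, so this count has no background beside it. The other 10 then had adjusted p-values from 0.0277 for SPAC977.18 to 0.250 for mel1. Of the 13, 11 overlap an annotated gene on the opposite strand and 2 have a near-identical copy.

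Of the 7 that rose, 3 lay in the weakly expressed stretch next to the left telomere. SPAC977.18, an uncharacterized protein gene with a mean of 72.7 normalized counts in the epe1KO pair, rose by 1.11 (SE 0.21, adjusted p 9.94e-06) on the log2 scale. Part of its coding sequence (59.0%) matches another place on chromosome I at 95.8% identity. Its neighbour ftm2, which encodes a protein with transmembrane helices, had a mean of 20.2 and rose by 0.93 (SE 0.19, adjusted p 9.88e-05), with a copy of 100% identity elsewhere on chromosome I. SPAC977.05c, with a Vel1p domain and a mean of 31.0, rose by 1.04 (SE 0.20, adjusted p 1.47e-05) and has a copy of 99.4% identity on chromosome II. The 2 Vel1p domain genes among the listed genes at the ends of chromosome II also rose, SPBC1348.06c by 0.66 and SPBPB2B2.15 by 0.79, and reads of such similar genes may not be told apart.

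The other 4 that rose lay farther in and have no near-identical copy. The glycoprotein gene pfl8 (SPAC1F8.06), of the cell surface family that includes flocculins, had a mean of 726 and rose by 0.97 (SE 0.16, adjusted p 1.99e-07). SPAC11D3.19, uncharacterized, had a mean of 367 and rose by 0.86 (SE 0.16, adjusted p 1.39e-05). At the right end mel1 (SPAC869.07c), the gene for melibiase, an alpha-galactosidase that splits melibiose, had a mean of 37.4 and rose by 0.81 (SE 0.21, adjusted p 0.00311). The galactosyltransferase gene gmh2, at the inner edge of the left end, had a mean of 2670 and rose by 0.50 (SE 0.13, adjusted p 0.00199).

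The 6 that fell had means between 373 and 3018 normalized counts, and none has a near-identical copy. SPAC11D3.02c, the acetyltransferase gene, had a mean of 2975 and fell by 0.98 on the log2 scale (SE 0.14, adjusted p 9.24e-10). The D-glutamate cyclase gene dgc1 (SPAC5H10.01) had a mean of 373 and fell by 0.96 (SE 0.16, adjusted p 3.06e-07). Next to it SPAC11D3.18c, a carboxylic acid transporter gene with a mean of 564, fell by 0.74 (SE 0.16, adjusted p 0.000116). At the right end yhb1, with a mean of 1209, fell by 0.66 (SE 0.14, adjusted p 8.51e-05), and the sulfate transporter gene sul2 (SPAC869.05c), with a mean of 1089, by 0.54 (SE 0.14, adjusted p 0.00287). The NADPH dehydrogenase gene SPAC5H10.10, with a mean of 3018, fell by 0.48 (SE 0.12, adjusted p 0.00292).

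**Figure D3:**
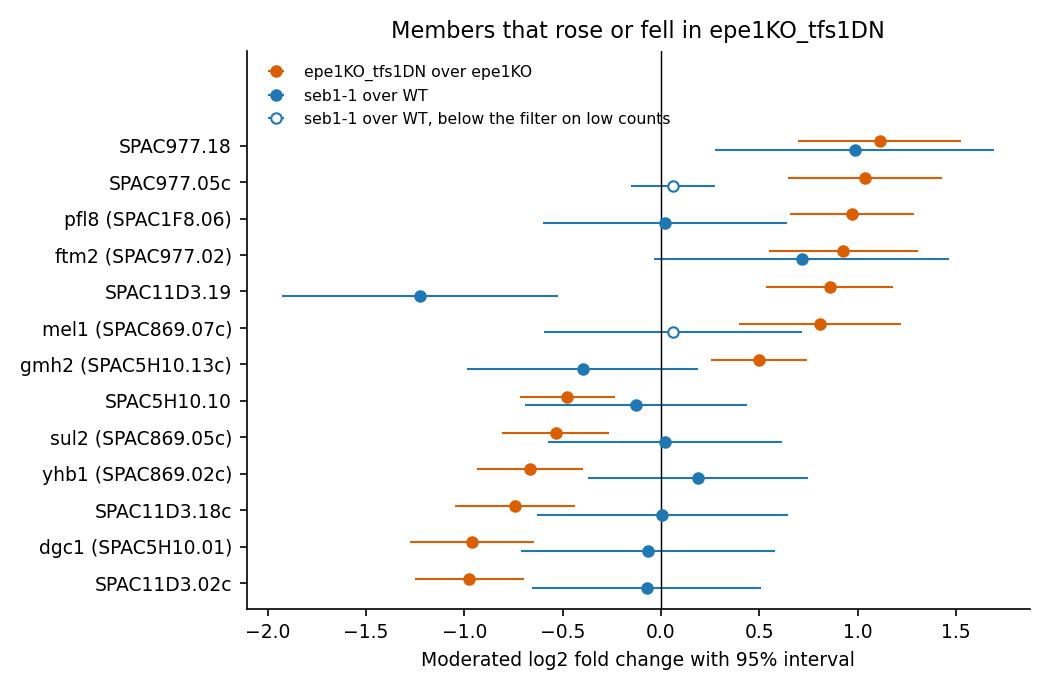
Moderated log2 fold change with its 95% interval (horizontal axis) of the 13 members that rose or fell in the tfs1DN comparison (one per line), in orange for epe1KO_tfs1DN over epe1KO and in blue for seb1-1 over WT. Open symbols mark members below the authors' filter on low counts, and SPAC11D3.19 is the member whose 2 intervals lie on opposite sides of 0.

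Among neighbouring members, SPAC977.18 and ftm2 both rose, and SPAC11D3.18c and dgc1 both fell. No other member that passed had a neighbour past the threshold, and both neighbours of SPAC977.05c were below the filter on low counts. Genes that the rule leaves out did lie in runs: 4 adjacent genes of SPAC977, from SPAC977.14c to SPAC977.17, rose by 2.08, 0.93, 1.71 and 1.17, and the adjacent shu1 and str3 by 1.42 and 0.90. SPAC11D3.02c fell while SPAC11D3.01c on one side was at -0.09 and SPAC11D3.03c on the other at 0.11. The gene pfl8 rose while its neighbour isp3 (SPAC1F8.05), whose product is a protein of the spore wall, was at 0.17 (adjusted p 0.595). The gene sul2 fell while the adjacent hry1 was at 0.49 (adjusted p 0.0429) and did not pass. The Spearman correlation of the log2 fold change with position was -0.29 over 41 tested members of the left end and 0.15 over 12 of the right end.

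By role, the members annotated for membrane transport held 2 that fell and 0 that rose among 10 tested, with a median log2 fold change of -0.32. Besides SPAC11D3.18c and sul2, the arginine and lysine transporter gene cat1 (SPAC869.11) was at -0.41 (adjusted p 0.0311) and nhe1 at -0.29, and neither passed. The proline transporter gene put4 (SPAC869.10c), next to cat1, was at 0.00 (interval -0.27 to 0.28). Of 4 tested oxidoreductases 2 fell, SPAC5H10.10 and yhb1. SPAC5H10.04, the second member annotated as an NADPH dehydrogenase, was at -0.35 (adjusted p 0.283), and SPAC5H10.05c, an FAD-binding oxidoreductase gene, at 0.25. Of the 8 members in the membrane and surface group only 2 were tested, ftm2 with its identical copy and low mean, and pfl8, and both rose. These counts stand beside 2.37% of all tested genes that rose and 2.21% that fell, and the groups are too small to be set against each other.

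Among 8 tested transferases and ligases gmh2 rose and SPAC11D3.02c fell, while the galactosyltransferase genes next to gmh2 were at -0.08 for otg1 (SPAC5H10.12c) and 0.01 for gmh1. The pantothenate genes pan6 and ecm31 (SPAC5H10.09c) were at -0.21 and -0.02. Roles were read from the product text, and none of 6 tested members that it places among hydrolases and amidases passed. These include the oxoprolinase genes SPAC11D3.14c at -0.28 and SPAC11D3.15 at -0.20 and the asparaginase gene SPAC977.12 at -0.19. None of 3 transcription factor genes passed, with toe4 (SPAC11D3.07c) at 0.02. The remaining group of 20 held 4 that rose and 1 that fell. Among the 4 was mel1, an alpha-galactosidase and so a hydrolase, whose product text holds no such term. SPAC5H10.03, the most abundant member per kb, was at -0.38 (adjusted p 0.0315) and did not pass.

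Whether the 2 fold changes of a gene differed was tested directly, since the 2 comparisons share no library. They differ in background (WT or epe1KO) and were normalized separately, and tfs1DN was a single isolate. A difference therefore cannot be assigned to the mutants alone. Over all genes with both fold changes 1.24% differed at an adjusted p below 0.01, and 2 of 70 members did so. SPAC11D3.19 was at -1.23 (interval -1.93 to -0.52) in seb1-1 and at 0.86 (interval 0.54 to 1.18) in epe1KO_tfs1DN, a difference of 2.08 (SE 0.39, adjusted p 3.53e-05). It passed also with both standard errors multiplied by the spread of their table (adjusted p 0.00049). SPAC977.05c differed by 0.98 (SE 0.23, adjusted p 0.00213), but its mean in the WT pair was 0.311 normalized counts, where a moderated fold change is held near 0 with a small SE, and the difference did not pass with the multiplied errors (adjusted p 0.0898). The other 11 members that passed in the tfs1DN comparison did not differ past the threshold from their values in seb1-1. Of these, SPAC977.18 was at 0.99 and 1.11 in the 2 comparisons, and ftm2 at 0.72 and 0.93.

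The mean levels of the 2 pairs were set side by side as ratios of the epe1KO pair over the WT pair, divided by the median ratio of all genes. This has no test, since the tables were normalized separately and genotype, strain history and handling of the pairs cannot be told apart. Over 70 members with a mean above 0 in both pairs the median ratio was 0.87. Ratios below 0.5 were found for 15 members (21.4%) and ratios above 2 for 14 (20.0%), against 8.46% and 8.19% of all genes. Among the 39 members with a mean of at least 50 in both pairs, 3 (7.69%) were below 0.5, against 7.86% of all genes at that level, and 7 (17.9%) were above 2, against 6.23%. With the sums of all means in place of the median ratio as the scale, the median of the members was 1.35, on the other side of 1.

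Of the 15 ratios below 0.5, 5 were in SPAC186 and 3 in SPAC212. Other outer clones were less low, with 2 of 11 ratios below 0.5 in SPAC977 and 1 of 2 in SPAC750. In SPAC186 of the right end 5 of 6 members with a ratio were lower in the epe1KO pair, and the median was 0.118. The mean of gdt1 (SPAC186.05c), a GDT1-like gene, was 90.8 in the WT pair and 22.1 in the epe1KO pair, and its neighbour SPAC186.04c was at 21.7 and 4.10. The hydroxyacid dehydrogenase gene SPAC186.02c was at 6.53 and 0.153, and the lactate dehydrogenase gene SPAC186.08c at 3.07 and 0.202. The exception, SPAC186.06, annotated as an isomerase, had a mean of 6.04 in the WT pair and a ratio of 1.55. Of the left-out genes in the same clone, pfl9 was at 237 and 46.0, and pdc102 at 7.64 and 1.68. In SPAC212 of the left end the median ratio over 5 members was 0.220, with SPAC212.04c at 66.9 in the WT pair and 7.90 in the epe1KO pair, and SPAC212.06c, a helicase-like gene, at 26.2 and 6.25. At such low means few reads stand behind a ratio.

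The median ratio of the other clones with at least 4 members measured lay between 0.86 and 2.25. It was 2.25 over 4 members of SPAC1F8, 1.41 over 12 of SPAC5H10, 1.39 over 11 of SPAC869, 1.18 over 11 of SPAC977 and 0.86 over 19 of SPAC11D3. With summed means as the scale SPAC11D3 turned to 1.34, while SPAC186 at 0.183 and SPAC212 at 0.342 stayed below 1. The mean of SPAC11D3.18c was 129 in the WT pair and 564 in the epe1KO pair, that of SPAC5H10.10 was 809 and 3018, and that of pfl8 was 222 and 726. Among genes with near-identical copies, SPAC977.05c was at 0.311 and 31.0, the phospholipase gene plb4 (SPAC977.09c) at 3.42 and 39.7, and fex1 (SPAC977.11), a fluoride exporter gene, at 9.48 and 42.6. Of the 13 members that passed in the tfs1DN comparison, 7 had a ratio above 2 and 1, yhb1, had a ratio below 0.5. Ratios above 2 were found for 20.0% of members with a ratio and 8.19% of all genes. Ratios below 0.5 were found for 21.4% and 8.46%. The mean of the epe1KO pair includes the epe1KO_tfs1DN libraries, so these ratios and the calls are not independent.

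**Figure D4:**
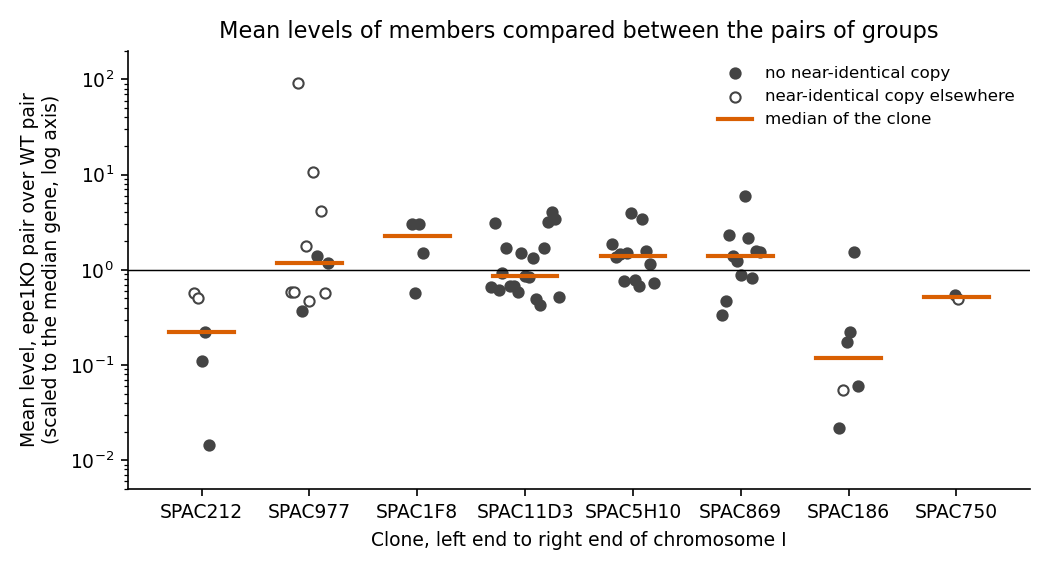
Ratio of mean levels, epe1KO pair over WT pair, scaled to the median gene (vertical axis, log scale), for the 70 members with a mean above 0 in both pairs, by clone from the left to the right end of chromosome I (horizontal axis), with open circles for members with a near-identical copy and orange lines for clone medians. The medians of SPAC212 and SPAC186 lie at 0.220 and 0.118, and that of SPAC1F8 at 2.25.

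The genes of the same clones that the rule leaves out moved more than the members. The rule names them and was set with earlier results of these data known, so this difference is no independent result. In the tfs1DN comparison 7 of 10 tested rose and 1 fell, where 2.37% of all tested genes rose and 2.21% fell. The left-out genes had a median log2 fold change of 1.05, and 5 rose by more than 2-fold. Counts over the members alone therefore understate the change of these clones. With the 11 genes put back, 21 genes passed in place of 13, and the median over the list was 0.01 in place of -0.07. In the seb1-1 comparison 0 of the 10 tested left-out genes passed.

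The listed genes at the matching ends of chromosome II were read the same way. Of 94 genes, 65 were tested in the seb1-1 comparison and 0 passed. In the tfs1DN comparison 9 of 69 rose (13.0%) and 5 fell (7.25%), with a median log2 fold change of -0.03, beside 13.2% and 11.3% of the members. Among 29 genes for telomere and subtelomere chromatin factors, such as taz1, rap1, swi6 and clr4, 0 passed in the seb1-1 comparison and all 29 intervals lay within 1 log2 unit of 0. In the tfs1DN comparison bqt4, which anchors telomeres to the nuclear membrane, rose by 0.50 (adjusted p 0.00278), and the other 28 did not pass.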

How the data were processed

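RNA-seq of 8 poly(A)-selected, directional libraries was compared in 2 pairs of groups. The authors aligned reads with TopHat and compared counts with DESeq2, 2 replicates per condition. The labels name genome build ASM294v2. The sources used here name no counting tool, strand setting or program version. The authors deposited, per gene, a mean signal (the count divided by size factors and averaged over the 4 libraries of a pair). The authors also deposited moderated log2 fold changes with standard errors, a Wald score, and the p-value with its Benjamini-Hochberg adjusted p-value. These columns are the authors' own comparisons and were used because the tables hold nothing else. They hold no value per library, so depth and its precision are unknown. Positive values mean higher in seb1-1 or epe1KO_tfs1DN. The second table's name puts epe1KO first, and its direction was taken from the title of a supplementary sheet of the study.

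From these values, counts at an adjusted p below 0.01, medians and 95% intervals (fold change and normal quantiles of its SE) were computed with Python 3.11.15, pandas 2.3.3 and SciPy 1.17.1. Differences between the comparisons were tested with a 2-sided z test, Benjamini-Hochberg adjusted over 5069 genes. Duplicates were sought with BLAST+ 2.17.0 in assembly ASM294v3. Members and lists were chosen with earlier results of these data known. Named members were those past the threshold, the 5 highest and 5 lowest fold changes, the 5 highest levels per kb and those differing between comparisons. Others, named to describe neighbours, roles and levels, were chosen after their values were seen. Promoter motifs were not analysed here. Alternatives were the thresholds, the adjustment over all genes, scaling of Wald scores, leaving out duplicated or weakly expressed members and putting back left-out genes. The adjustment, the spread scaling and the difference test were tested on simulated data.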

Additional observations from a re-analysis of the deposited data

How the results depend on the processing

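In the seb1-1 comparison 1 member, SPAC11D3.03c, passed at an adjusted p below 0.05 in place of 0, and the count stayed at 0 under the 7 other alternatives. In the tfs1DN comparison the count of 13 became 2 with a 2-fold minimum, 3 with Wald scores divided by their spread and 21 with the left-out genes put back. It was 16 at an adjusted p below 0.05, 13 with the adjustment over every gene with a p-value and 11 without near-identical copies. With a mean of at least 50 it was 10. It was also 10 without members matching elsewhere over at least 50% of their coding sequence, an alternative chosen after seeing the data. Apart from 0.522% past the 2-fold minimum in the tfs1DN comparison, shares of all tested genes under changed thresholds, adjustment and scaling are not given. Counts under those settings have no background beside them. Of 46 readings of single named members, all kept their side of the threshold with the adjustment over every gene, and 10 lost it with scaled Wald scores. The members whose fold changes differ between the comparisons were 1 in place of 2 with multiplied errors. The median level ratio of 0.87 became 1.35 with summed means as the scale and 1.25 with a mean of at least 50 in both pairs. The median log2 fold change in the tfs1DN comparison was between -0.09 and 0.01 under these alternatives, and turned positive only with the left-out genes put back. Beyond what fewer or more genes explain by construction, the cause was not tested.

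No paired analysis was possible because the tables hold no value per library. For the same reason leaving out each library in turn was not run. Depth per library is unknown, members below the filter on low counts (28 for seb1-1 and 29 for tfs1DN) were not tested, and a fold change of a member with few reads is held near 0 by the authors' moderation.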

Other observations

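Some families have a member at both ends of chromosome I, or several at one end, and these were read as pairs chosen after their values were seen. The Con-6 family genes were unlike in level: SPAC11D3.01c at the left end had means of 478 normalized counts in the WT pair and 341 in the epe1KO pair, and SPAC869.09 at the right end 24.3 and 21.8. Their log2 fold changes in seb1-1 were 0.56 (SE 0.31) and -1.01 (SE 0.38), neither past the threshold. The asparaginase genes, which release ammonia from asparagine, were further apart, with means of 1270 and 775 for SPAC977.12 at the left end and 2.24 and 0.134 for SPAC186.03 at the right end. Both have near-identical copies on chromosome II. The glyoxylase III genes hsp3104 (SPAC11D3.13) and hsp3102 (SPAC5H10.02c), 7 positions apart at the left end, had means of 398 and 47.2 in the WT pair and log2 fold changes of -0.17 and -0.16 in seb1-1, and of -0.05 and -0.09 in epe1KO_tfs1DN.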
